A study of Homo sapiens with 26 samples.

Results

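Compound 77 was compared with its vehicle DMSO in 786-O cells, using the 3 arrays titled 77 and the 3 arrays titled DMSO out of 26 in the series and all of their probe sets. The 786-O line is an established human clear cell renal carcinoma line. VHL, whose product sends HIF-alpha subunits to the proteasome, is inactivated in this line, so the parental cells of every group keep the transcription factor HIF-2a (gene EPAS1). The design set 4 HIF-2a inhibitors from a chemical screen beside vehicle and no treatment. The numbers 77, 41, 76 and 40 were read as the 4 compounds and Blk as the untreated cells by elimination, with 3 arrays each. WT8 and PRC3, also with 3 arrays each, carry names that are in wide use for 786-O sublines with wild-type VHL put back and with an empty vector, although the labels do not state it. No source used here gives doses, treatment times or structures of the compounds, so a difference between compounds cannot be told apart from a difference in dose or time. The labels do not say whether replicate arrays came from separate cultures, so every p-value measures spread among arrays that may be technical.

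HIF-2a mRNA carries an iron-responsive element in its 5′ untranslated region, a hairpin that iron regulatory proteins bind to hold back translation when iron is low. In clear cell carcinoma HIF-2a drives genes such as VEGFA and CCND1. NRF2 is another stress-responsive transcription factor. It is normally held by KEAP1 and degraded, and when electrophiles or oxidants modify KEAP1 it enters the nucleus and raises genes of quinone reduction, glutathione synthesis and heme breakdown.

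Values are MAS5 signals, a linear brightness per probe set, after quantile normalization across arrays, with a floor of 20. A gene was called when its adjusted p in limma, over all 35013 probe sets kept, was below 0.05. The mean deposited signal was 142.8 on each of the 6 arrays, and the 3 prime over 5 prime ratios were between 0.997 and 1.10 for ACTB and between 0.917 and 0.966 for GAPDH. Correlations of log2 signals were 0.964 to 0.971 among the 77 arrays, 0.948 to 0.970 between 77 and DMSO arrays, and 0.963 to 0.974 among DMSO arrays. Of 10 renal and clear cell carcinoma markers 9 were measured, with a summed signal of 14167 to 15254 on the 77 arrays and 14324 to 15302 on the DMSO arrays; CA9 was not kept. Markers of other cell types stayed low. The 4 measured fibroblast markers summed to 177 to 206 with 77 and 213 to 266 with DMSO, the 3 endothelial markers to 93.9 to 144 with 77 and 119 to 129 with DMSO, and the 1 leukocyte marker measured, CD3E, was at the floor on each 77 array. In bulk RNA, fewer cells of a type and less RNA per cell cannot be told apart.

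Few transcripts passed the test with compound 77 against DMSO. Of 35013 probe sets, 60 were called (0.171%), 43 higher (0.123%) and 17 lower (0.0486%) with 77 than with DMSO. With 1 probe set a gene, 27 of 15124 genes were called (0.179%), 21 higher (0.139%) and 6 lower (0.0397%), and the median log2 change of all genes was 0. The vehicle itself made 0 calls against untreated Blk in limma, with 794 probe sets at an unadjusted p below 0.05 (2.27%), against 2672 (7.63%) for 77 against DMSO. Each array moved the count. Leaving out 77 replicate 1, 2 or 3 gave 125, 15 or 22 called probe sets, and leaving out DMSO replicate 1, 2 or 3 gave 25, 34 or 25. When the 77 and DMSO arrays were fitted alone, 0 probe sets were called and 3152 had an unadjusted p below 0.05. NQO1, PTGR1, H2BC12, FTH1P5, TRIDDENT and VPS13C-DT were called in each of the 6 fits that left out 1 array; each of the other 21 genes lost its call in at least 1 of them, JAG1 in all 6. Replicate 1 of 77 was the array nearest to DMSO for 20 of the 27 called genes, against 2 for replicate 2 and 5 for replicate 3.

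**Figure D1:**
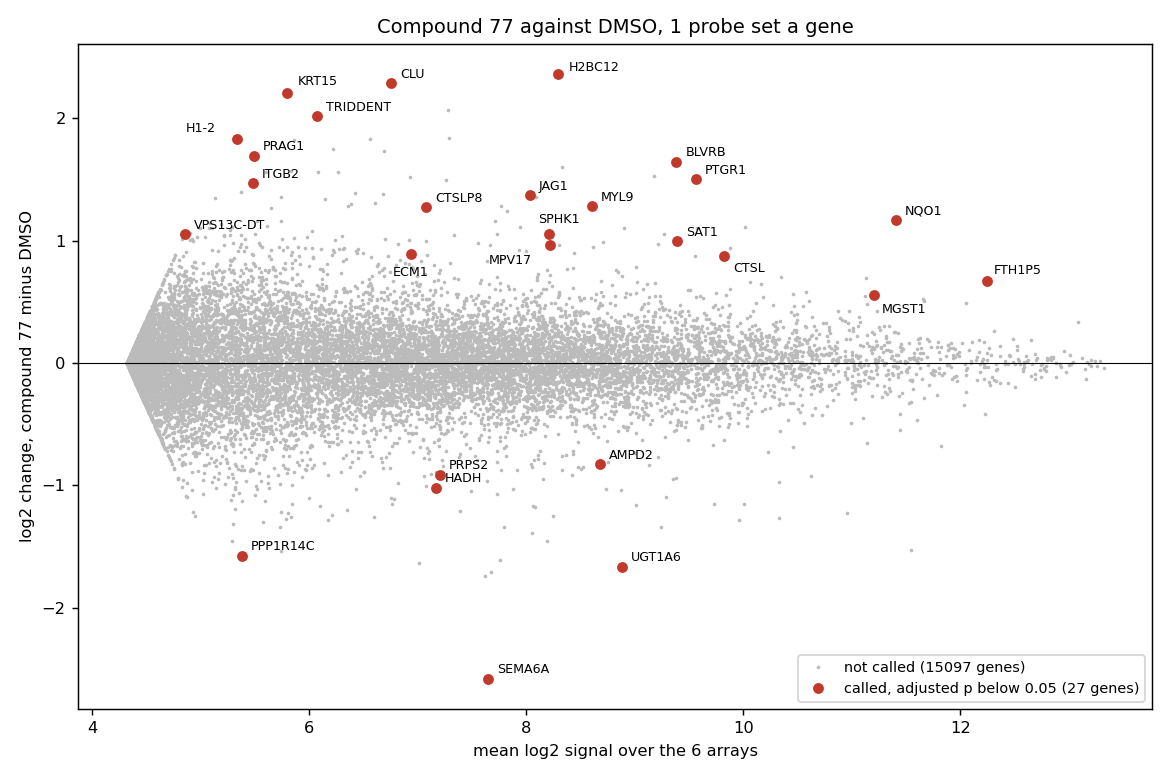
Each point is a gene, placed by its mean log2 signal over the 77 and DMSO arrays (x axis) and by its log2 change, compound 77 minus DMSO (y axis). The 27 called genes are in red, 21 above and 6 below 0, and 15097 genes in grey were not called.

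NQO1 and PTGR1, both NRF2 targets, had the smallest p-values of all genes tested. NQO1, a quinone reductase, had signals of 3307, 4537 and 4474 on the 77 arrays, against 1774, 1813 and 1824 on the DMSO arrays. It was 2.25-fold higher with 77 (log2 change 1.17, SE 0.13, limma adjusted p = 8.19e-05), and all 3 of its probe sets were called. The DMSO arrays lay close together and every 77 array stood well above them. PTGR1, which reduces reactive aldehydes and prostaglandins, gave 901, 1583 and 1450.5 with 77 and 534, 399 and 426 with DMSO. Its rise was 2.84-fold (SE 0.21 on the log2 scale, limma adjusted p = 0.00146), and the groups did not overlap, with replicate 1 of 77 the lowest of its group. MGST1, a membrane glutathione transferase, measured 2648, 3077 and 2894 with 77 and 2249, 1808 and 1833 with DMSO, a 1.47-fold rise (limma adjusted p = 0.013); 2 of its 4 probe sets were called.

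NQO1 and PTGR1 were the 2 called members of the NRF2 target list. Of 28 measured targets, 2 were called higher, beside 0.139% of all genes, and 0 lower, and their median log2 change was 0.19, beside 0 for all genes. TXN, the cytosolic thioredoxin, had 4537, 5399 and 5211 with 77 and 3456, 3794 and 3488 with DMSO (log2 difference 0.49, limma adjusted p = 0.117), groups apart but short of the threshold. ME1, a malic enzyme that makes NADPH, had 504, 739 and 709 with 77 and 484, 461 and 433 with DMSO (log2 difference 0.48, limma adjusted p = 0.379). HMOX1, the inducible heme oxygenase, had 90.7, 128 and 111 with 77 and 109.5, 77.8 and 84.6 with DMSO. Its groups overlapped, and the 95% interval of its log2 difference was -0.28 to 0.85. Genes of glutathione synthesis had overlapping groups. GCLC, the catalytic subunit of glutamate-cysteine ligase, had 191, 179 and 219 with 77 against 203, 219.8 and 242 with DMSO. Its modifier GCLM had 968, 951 and 943 with 77 against 918, 1142 and 983 with DMSO. TXNRD1, thioredoxin reductase, differed by 0.14 (95% interval -0.16 to 0.44) on the log2 scale. None of the 6 measured NRF2 regulators was called; NFE2L2, the gene of NRF2, differed by 0.24 and KEAP1 by 0.23.

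NRF2 binds DNA with small MAF proteins at a core that reads TGACNNNGC. The sites below show where that core falls in the window of 250 bases before and 50 bases after a RefSeq gene start (GRCh38.p14), in capitals, for 4 NRF2 targets that were not called and for CTSL, a called gene that is not on the NRF2 list.
GCLM: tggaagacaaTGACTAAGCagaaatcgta
TXNRD1: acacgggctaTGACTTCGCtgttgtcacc
ME1: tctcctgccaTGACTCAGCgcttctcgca
PIR: agcctcaccgTGACTCAGCgcttcgcggc
CTSL: cagcttcgccTGACTCTGCttctaaaacc
The GCLM site lies at chr1:93909446-93909474 on the plus strand, the TXNRD1 site at chr12:104215670-104215698 on the plus strand and the ME1 site at chr6:83431170-83431198 on the minus strand. The PIR site is at chrX:15493289-15493317 on the plus strand, 27 bases after the gene's start, and the CTSL site at chr9:87726086-87726114 on the minus strand, 23 bases before the start. TXNRD1 had 3 matches and ME1 had 2, and the one on the gene's own strand is shown for each. Both strands were searched, and 5 of the 21 measured NRF2 targets with a window held the core, as did 5 of the 19 called genes with a window, beside 16.1% of 27305 genes with a window and 13.3% of 35116 windows. The targets that held it were GCLM, ME1, PGD, PIR and TXNRD1, none of which passed the test with 77 against DMSO. HMOX1, SLC7A11 and AKR1B10 had no window in the table. A match is a description of letters, not a bound site.

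BLVRB and FTH1P5 were called higher. BLVRB, the biliverdin reductase that acts downstream of heme oxygenase, had 779, 1833 and 1153 on the 77 arrays and 461, 325 and 359 on the DMSO arrays. It rose 3.12-fold (SE 0.29 on the log2 scale, limma adjusted p = 0.0107), with replicate 2 of 77 the highest and no overlap. FTH1P5 is a processed pseudogene of ferritin heavy chain FTH1, and its probe set matches a near-identical sequence, so that FTH1 mRNA may be counted there. It had 5463, 6357 and 6540.0 with 77 and 3952, 3958 and 3632 with DMSO, a 1.59-fold rise (SE 0.095, limma adjusted p = 0.0018). Of 13 measured genes on the heme list only BLVRB was called, beside 0.139% of all genes called higher, with a list median of 0.12. ALAS1, the first enzyme of heme synthesis, had 301, 421 and 440.5 with 77 and 217, 231 and 248 with DMSO (limma adjusted p = 0.0947).

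On the list of iron handling genes and of mRNAs with iron-responsive elements, 13 of 19 entries were measured. Of these 0 were called, beside 0.179% of all genes, and the median was 0.25. FTH1, the ferritin heavy chain, was not measured, since no kept probe set was assigned to it alone. FTL, the ferritin light chain, whose 5′ hairpin represses its translation, had 9179, 10168 and 9905 with 77 and 7889, 7523 and 7754 with DMSO (log2 difference 0.34, limma adjusted p = 0.376). TFRC, the transferrin receptor, whose 3′ hairpins stabilise its mRNA, had 2164, 3398 and 3140.2 with 77 and 1668, 1698 and 1929 with DMSO (log2 difference 0.69, limma adjusted p = 0.44). Both had non-overlapping groups, both lay higher with 77, and neither passed the test. FBXL5, the ubiquitin ligase subunit that senses iron, differed by 0.35 and SLC11A2, an iron importer, by 0.25 on the log2 scale. Part of an iron-responsive element was searched as a C, 5 bases of any kind and CAGTG with 1 more base. The loop is only the last part, CAGTG with 1 more base. The whole match in FTL is shown in capitals. It belongs to FTL mRNA and is not the element of HIF-2a mRNA.
FTL: tcttgCTTCAACAGTGTttggac
This stretch lies at chr19:48965336-48965358 on the plus strand (GRCh38.p14, RefSeq), 33 bases after the gene's start, and 1.67% of 35116 windows held the pattern on the sense strand after the start. The EPAS1 window ends 50 bases after its start and held no match, which says only that the letters are not in that stretch.

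CTSL and SAT1 rose as well. CTSL, the lysosomal protease cathepsin L, had 995, 1511 and 1223 with 77 and 722, 629 and 656 with DMSO, a rise of 1.83-fold (SE 0.14 on the log2 scale, limma adjusted p = 0.00599). CTSLP8, a pseudogene of CTSL whose probe set can share transcripts with it, rose 2.42-fold (limma adjusted p = 0.00534), so the 2 results may not be independent. In the autophagy and lysosome list CTSL was the only one of 16 measured members called, beside 0.139% of all genes called higher, with a median of 0.17. SAT1, the rate-limiting enzyme of polyamine breakdown, had 801, 1083 and 985 with 77 and 521, 404 and 512 with DMSO. It was 1.99-fold higher (limma adjusted p = 0.0103), and 2 of its 3 probe sets were called. All 77 arrays lay above all DMSO arrays for CTSL, CTSLP8 and SAT1.

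CLU, JAG1, MYL9, SPHK1, ECM1, KRT15 and ITGB2 were also called higher. CLU, the secreted chaperone clusterin, had 166, 293 and 279.8 with 77 and 89.2, 30.3 and 43.3 with DMSO, 4.89-fold higher (SE 0.47 on the log2 scale, limma adjusted p = 0.0462). JAG1, a Notch ligand, had 429, 455 and 384 with 77 and 142, 170.2 and 179.9 with DMSO, 2.59-fold higher (SE 0.28, limma adjusted p = 0.0394). Replicate 1 of 77 was the lowest of its group for CLU, while for JAG1 replicate 3 was. MYL9, a regulatory light chain of myosin, rose 2.43-fold (limma adjusted p = 0.013), SPHK1, which makes sphingosine 1-phosphate, 2.08-fold (limma adjusted p = 0.0462) and ECM1, an extracellular matrix protein, 1.85-fold (limma adjusted p = 0.0215). KRT15, a keratin, had 65.7, 191 and 136 with 77 and 20, 41.1 and 21.05 with DMSO (limma adjusted p = 0.0165). ITGB2, an integrin subunit of leukocytes, had 70.3, 87.5 and 67.1 with 77 and 20, 46.9 and 20.7 with DMSO (limma adjusted p = 0.0427). Both were near the floor on most DMSO arrays. The lists for extracellular matrix, adhesion, TGF-beta response and the plasminogen system held 0 called members.

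**Figure D2:**
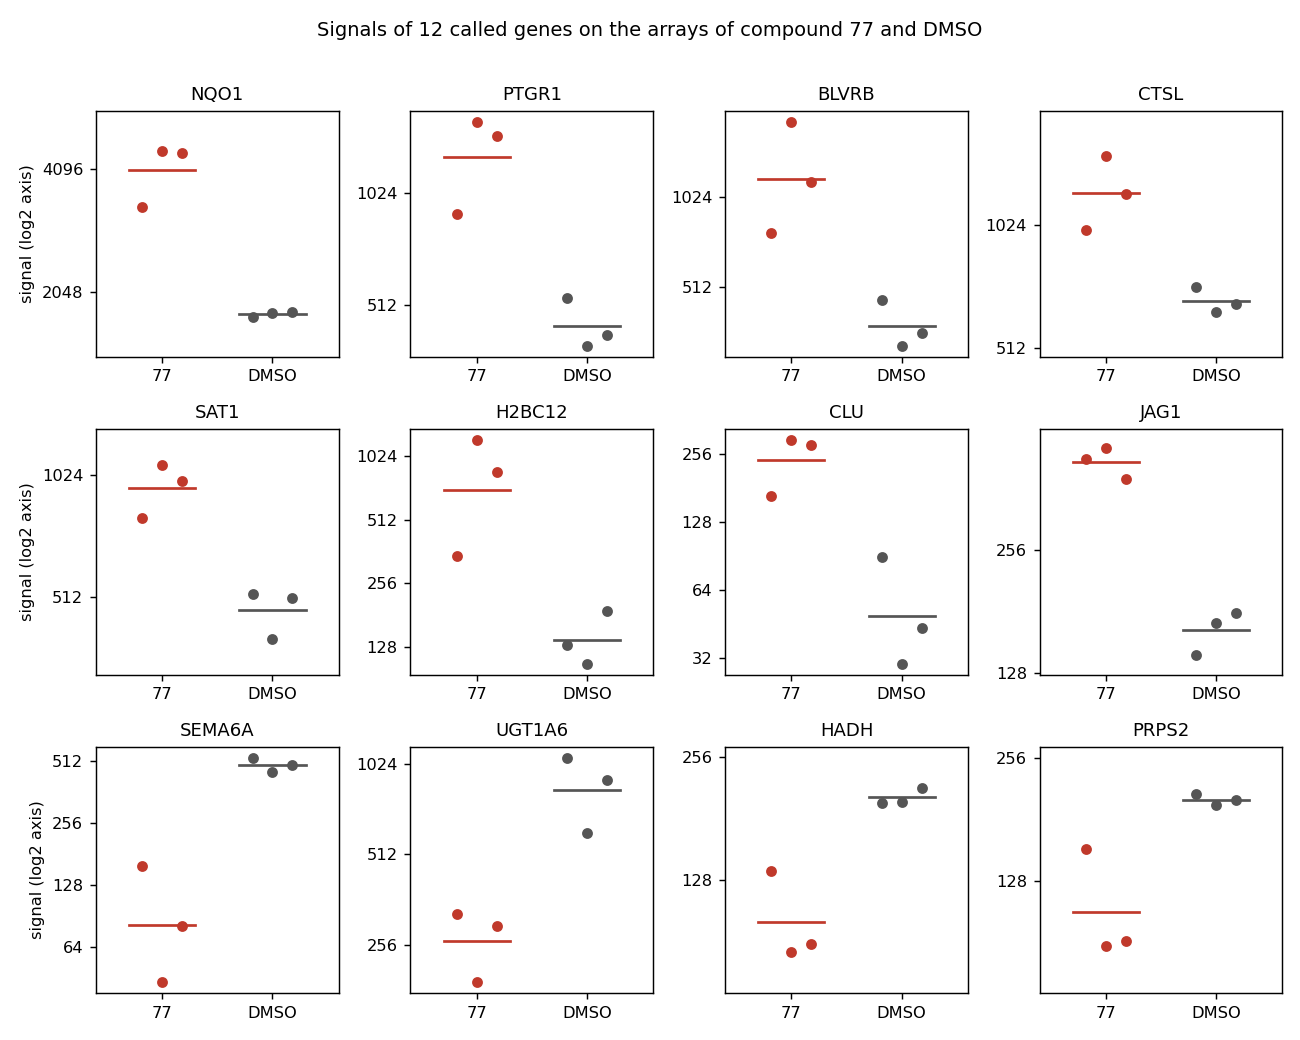
Signals of 12 called genes (y axis, log2 scale, each panel with its own range) on the 3 arrays of compound 77 in red and of DMSO in grey, replicates 1 to 3 left to right, with bars at the geometric mean. In every panel the 77 arrays lie wholly above or wholly below the DMSO arrays.

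The rises included 2 histone genes. H2BC12, a replication-dependent histone H2B gene, had 345, 1217 and 856 with 77 and 131, 107 and 190.1 with DMSO. It was the largest called rise at 5.13-fold (SE 0.35 on the log2 scale, limma adjusted p = 0.00267). H1-2, a linker histone gene, had 43.7, 133 and 74.7 with 77 and 20, 20 and 24.3 with DMSO (limma adjusted p = 0.0394), with 2 DMSO arrays at the floor. A list of 24 clustered histone genes was added after these calls were seen: 2 were called, 10 had an unadjusted p below 0.05 with 77 higher (beside 4.12% of all genes) and 0 with 77 lower, and the median was 0.29. These genes are close in sequence, so that probe sets may share transcripts, and the list was chosen on these values. Its summed signal was 1313 to 3170 on the 77 arrays and 820.2 to 963.7 on the DMSO arrays.

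TRIDDENT, a long noncoding RNA, had 128, 124 and 154 with 77 and 26.6, 33.8 and 41.3 with DMSO, 4.05-fold higher (limma adjusted p = 0.00487). VPS13C-DT, a divergent noncoding transcript, had 42.4, 42.3 and 40.0 with 77 and 20, 20.2 and 20 with DMSO, with 2 of 3 DMSO arrays at the floor. PRAG1, a pseudokinase, had 71.5, 83.8 and 87.5 with 77 and 20, 20 and 38.7 with DMSO (limma adjusted p = 0.0192), and since 2 of its DMSO arrays were at the floor no fold is given. MPV17, an inner mitochondrial membrane protein, rose 1.95-fold (limma adjusted p = 0.0289). The groups were apart for all of them.

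The 6 genes called lower with their brightest probe set were SEMA6A, UGT1A6, HADH, PRPS2, AMPD2 and PPP1R14C. SEMA6A, a transmembrane semaphorin, had 158, 43.2 and 80.4 with 77 and 527, 453 and 489 with DMSO. It was 5.97-fold lower (log2 change -2.58, SE 0.44, limma adjusted p = 0.00959), with tight DMSO arrays and 77 replicate 1 the highest of its group. UGT1A6, a glucuronosyltransferase, had 323, 193 and 297 with 77 and 1070.0, 605 and 909 with DMSO, 3.17-fold lower (SE 0.35, limma adjusted p = 0.0462). The genes of the UGT1A locus share their last exons, so its signal cannot be assigned to 1 of them with certainty. HADH, an enzyme of mitochondrial fatty acid oxidation, had 135, 85.4 and 89.4 with 77 and 198, 199.5 and 215 with DMSO, 2.02-fold lower (limma adjusted p = 0.0131). The enzymes PRPS2 and AMPD2 were called too: PRPS2, which makes the ribose precursor PRPP, was 1.88-fold lower (limma adjusted p = 0.0462) and AMPD2, an AMP deaminase, 1.77-fold lower (limma adjusted p = 0.0427). PPP1R14C, a phosphatase inhibitor, was at the floor on 2 of 3 77 arrays, against 67.2, 68.8 and 79.8 with DMSO.

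The falls next by p-value with groups apart did not pass the test. ZNF664 had 652, 500.4 and 595 with 77 and 995, 777 and 934 with DMSO, and PXMP2, a peroxisomal membrane protein, 259, 209 and 238 with 77 and 409, 303 and 359 with DMSO. Both had a limma adjusted p that lies just above the threshold and rounds to 0.05. The log2 differences were -1.10 for TMEM141, -0.62 for the dipeptidase CNDP2, -0.52 for the RNA-binding protein DAZAP1, -0.75 for OAS3 and -0.49 for HMMR, and their adjusted p lay between 0.117 and 0.132. Besides the brightest probe set, other probe sets of 14 genes were called. Among them were a second probe set of HILPDA, a lipid droplet protein and HIF target (log2 change -1.02, limma adjusted p = 0.0462), and one of the metallothionein MT1F (-0.71, adjusted p = 0.0215), while the brightest probe sets of both gave -0.79 and -0.56 and were not called. Another 5 called probe sets, all higher, have no gene in the annotation. A further 6 match several genes, 1 of them higher and 5 lower. These 5 had the smallest p-values of all falls (limma adjusted p = 0.000377 to 0.00534). The brightest DMSO signal among them was 2663, on replicate 3, against 787 on 77 replicate 3. They were not assigned to a gene here.

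No member of the HIF-2a target list passed the test against DMSO with its brightest probe set. With replicate number as a block, 1 was called lower. HILPDA, named above, is not on that list. EPAS1 itself had 517, 463 and 404 with 77 and 556, 402 and 434 with DMSO, a log2 difference of -0.00 with a 95% interval of -0.49 to 0.49. VHL, mutated in this line, read 64.9, 46.0 and 61.5 with 77 and 58.0, 54.3 and 56.3 with DMSO. The 1 probe set assigned to HIF1A here never exceeded 17.9 on the 77 and DMSO arrays, under the floor. It was not kept, so HIF1A was not tested. Probe sets without a single-gene assignment were not counted for it, so whether HIF1A is expressed cannot be read from this. Of 31 measured targets of HIF-2a, 0 were called in either direction, with a median log2 change of -0.19 beside 0 over all genes. At an unadjusted p below 0.05, 1 target lay higher and 6 lower, beside 4.12% and 4.01% of all genes.

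The 77 arrays lay wholly below the DMSO arrays for 6 of the 31 targets and wholly above for 1, beside 6.92% and 7.35% of all genes. EGLN3, the hydroxylase that HIF itself induces, had 254, 102 and 171 with 77 and 629, 342 and 371 with DMSO (log2 difference -1.39, limma adjusted p = 0.377). IGFBP3, a binding protein of insulin-like growth factors, had 1047, 608 and 906 with 77 and 2599, 1368 and 2245 with DMSO (log2 difference -1.26, adjusted p = 0.41). NDRG1, a stress-responsive growth regulator, had 1888, 975 and 1184 with 77 and 4732, 2029 and 2888 with DMSO (log2 difference -1.22, adjusted p = 0.531). The DMSO arrays of these 3 genes spread widely, with replicate 1 the highest each time. For 3 well known targets the interval included 0: VEGFA differed by -0.29 (95% interval -0.90 to 0.32), CCND1 by 0.10 (-0.29 to 0.50) and SLC2A1 by -0.15 (-0.49 to 0.20) on the log2 scale. ANGPTL4, a lipase inhibitor and the 1 target higher at an unadjusted p below 0.05, had 48.6, 182 and 146 with 77 and 20, 73.4 and 20 with DMSO, and its groups overlapped (adjusted p = 0.369).

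**Figure D3:**
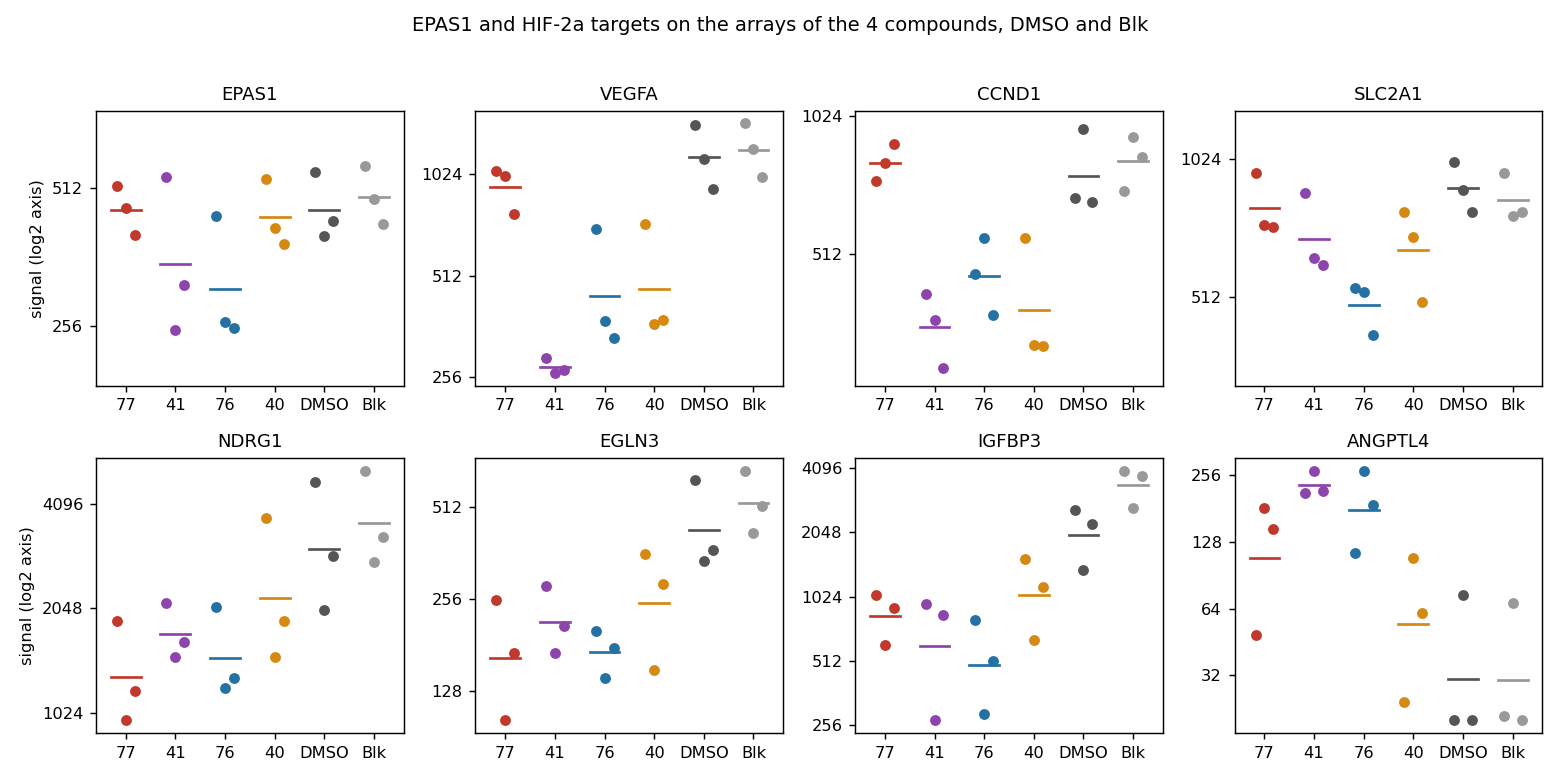
Signals of EPAS1 and 7 HIF-2a targets (y axis, log2 scale, each panel with its own range) on the 3 arrays of compounds 77, 41, 76 and 40, DMSO and Blk, with bars at the geometric mean. For VEGFA and CCND1 the 77 arrays lie above those of compound 41 and overlap DMSO; for IGFBP3, NDRG1 and EGLN3 they lie below the DMSO arrays.

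Direct tests against the other compounds, with no DMSO array in the contrast, gave other values for these targets. VEGFA was 3.41-fold higher with 77 than with 41 (limma adjusted p = 0.00261), at 1048, 1011 and 779 with 77 and 293, 263 and 269.8 with 41. CCND1, which drives entry into S phase, was 2.3-fold higher with 77 than with 41 (adjusted p = 0.00165) and 2.1-fold higher than with 40 (adjusted p = 0.0104). CA12, a carbonic anhydrase, was 1.76-fold higher with 77 than with 41 (adjusted p = 0.0358). In all, 3 of 31 HIF-2a targets were called higher with 77 than with 41, 0 against 76 and 1 against 40, and 0 were called lower against any of them. Of all genes, 0.238% were called higher with 77 than with 41, 0.192% than with 76 and 0.311% than with 40.

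The same tests gave the largest differences in NRF2 targets. Of 28 measured targets 15 were called lower with 77 than with 41 (beside 0.423% of all genes), 15 lower than with 76 (0.476%) and 12 lower than with 40 (0.264%), and 0 were called higher. Median log2 differences were -0.86, -0.94 and -0.70, beside -0.01, -0.00 and 0.00 for all genes. With each pair of groups fitted alone, 6, 4 and 1 were called. Replicates 2 and 3 of compound 40 had deposited mean signals of 166 and 174, unlike the shared mean of the other arrays, and were read here as scaled differently. Without them 2 targets were called against 40, with a median of -0.68.

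HMOX1 gave the smallest p-values of these contrasts. It read 90.7, 128 and 111 with 77, 3585, 2543 and 1925 with 41, 1714, 3708 and 2632 with 76 and 725, 1238 and 568 with 40, next to 109.5, 77.8 and 84.6 with DMSO. It was 23.8-fold lower with 77 than with 41 (limma adjusted p = 6.84e-10), 23.5-fold lower than with 76 (adjusted p = 7.62e-10) and 7.33-fold lower than with 40 (adjusted p = 4.76e-06). Every array of the other 3 compounds lay above every 77 array. AKR1C3, an aldo-keto reductase that acts on steroids and prostaglandins, read 85.3, 106 and 80.6 with 77 and 2430.3, 1839 and 2740.1 with 41, 25.6-fold lower with 77 (adjusted p = 1.48e-06). AKR1C1, AKR1C2 and AKR1C3 are close in sequence, and their probe sets may share transcripts.

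SLC7A11 and GCLM were also called lower with 77 than with 41 and 76. SLC7A11, the cystine importer, read 380.1, 436 and 309 with 77, 1852, 2316 and 2073 with 41 and 1938, 2195 and 1850.2 with 76, 5.58-fold and 5.36-fold lower with 77 (adjusted p = 3.91e-05 and 4.81e-05). Against 40, with 796, 942 and 930.0, its log2 difference was -1.26 and was not called (adjusted p = 0.058). GCLM read 968, 951 and 943 with 77, 2740.1, 2730.1 and 2637 with 41, 3065, 3045 and 3027 with 76 and 1938, 1480.4 and 1645 with 40. The 77 arrays of GCLM lay below all 9 arrays of the other compounds and 2.83-fold below the mean of 41 (adjusted p = 4.73e-08). SRXN1, which repairs oxidised peroxiredoxin, TXNRD1 and UGDH, which makes UDP-glucuronate, were 3.75-fold, 2.19-fold and 2.79-fold lower with 77 than with 41 (adjusted p = 0.000866, 0.000106 and 2.57e-05). In all, 11 of the 28 targets were called lower with 77 than with each of 41, 76 and 40: AKR1B10, AKR1C1, AKR1C2, AKR1C3, GCLC, GCLM, HMOX1, SRXN1, TALDO1, TXNRD1 and UGDH. Against DMSO the log2 differences of these 11 were between -0.40 and 1.06, and 0 of them were called. The number of the 28 targets called lower than with 40 depended on the processing. It was 7 with median scaling, 7 with no filter on dim probe sets and 15 with a replicate block. Not all 11 genes therefore keep that call in every setting.

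NQO1 was not called in these contrasts. It read 3307, 4537 and 4474 with 77, 5814, 5446 and 5711 with 41, 6152, 5413 and 5772 with 76 and 4909, 4332 and 4357 with 40. Its log2 difference was -0.48 against 41 (95% interval -0.74 to -0.21, adjusted p = 0.12), -0.51 against 76 (-0.77 to -0.24, adjusted p = 0.0913) and -0.15 against 40 (-0.42 to 0.11, adjusted p = 0.702). None passed the test, and the intervals against 41 and 76 lay below 0. PTGR1 was 1.91-fold lower with 77 than with 41 (adjusted p = 0.0415), differed from 76 by -0.89 without passing the test (adjusted p = 0.058), and differed from 40 by 0.25 (-0.18 to 0.69). BLVRB differed from 41, 76 and 40 by -0.01, 0.06 and 0.16, with intervals of -0.61 to 0.58, -0.53 to 0.66 and -0.43 to 0.76.

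**Figure D4:**
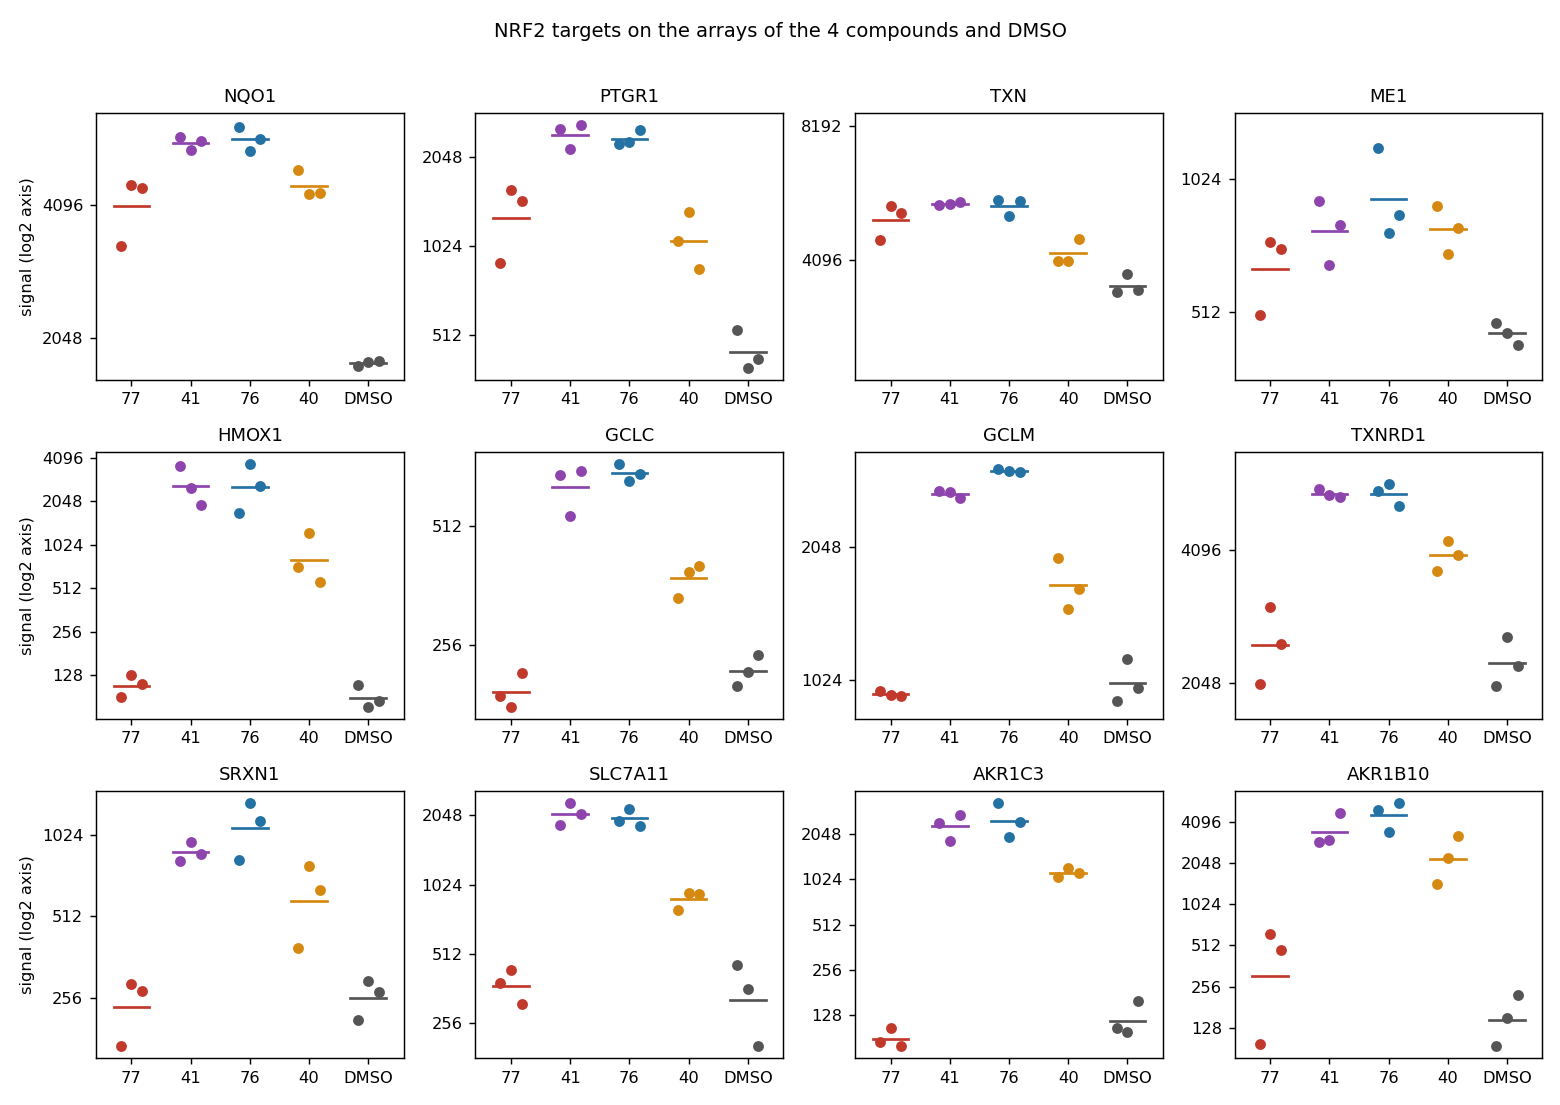
Signals of 12 NRF2 targets (y axis, log2 scale, each panel with its own range) on the 3 arrays of compounds 77, 41, 76, 40 and DMSO, with bars at the geometric mean. For NQO1 and PTGR1 the 77 arrays lie above DMSO, while for HMOX1, GCLC, GCLM, AKR1C3 and SLC7A11 they overlap DMSO and lie below the other compounds.

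Counts over all probe sets in these contrasts were 158 against 41 (0.451%), 166 against 76 (0.474%) and 154 against 40 (0.44%), or 100 (0.661%), 101 (0.668%) and 87 (0.575%) genes. Leaving out 1 array gave 85 (without 41 replicate 3) to 134 probe sets against 41, 76 (without 76 replicate 3) to 143 against 76, and 33 (without 77 replicate 3) to 459 (without 40 replicate 1) against 40. The count against 40 was 15 without its 2 differently scaled arrays. Outside the NRF2 list, VCAM1, an adhesion receptor for leukocytes, read 514, 489 and 515 with 77, 178, 231 and 236 with 41, 275, 158 and 198 with 76, 191, 209 and 192 with 40 and 280.0, 474 and 290.1 with DMSO. It was 2.37-fold, 2.47-fold and 2.57-fold higher with 77 (adjusted p = 0.0111, 0.00699 and 0.00857). Its 77 arrays lay above every array of the other compounds. NMU, a neuropeptide, was 2.62-fold, 2.59-fold and 2.22-fold higher with 77 (adjusted p = 0.00325, 0.00439 and 0.0311). TGM2, a transglutaminase, and GBP1, an interferon-inducible GTPase, were higher with 77 than with 76 (2.76-fold and 3.43-fold) and than with 40 (2.84-fold and 4.57-fold), but were not called against 41. Against 41 alone, MTSS1, an actin regulator, and CLDN1, a tight junction protein, were 2.77-fold and 3.27-fold higher with 77 (adjusted p = 0.000773 and 0.0358). On the lower side NRCAM, a neural adhesion protein, was 5.71-fold lower with 77 than with 76 (adjusted p = 1.95e-05), and UGT1A6 4.53-fold and ALDH1A1, a retinal dehydrogenase, 5.86-fold lower than with 40 (adjusted p = 0.00347 and 0.0146).

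Over the 41 gene lists other than the histone list, 5 of 538 measured genes were called with 77 against DMSO, beside 0.179% of all genes: NQO1, PTGR1, BLVRB and CTSL higher and UGT1A6 lower. The p53 target list held 0 calls among 17 measured members but had the highest list median, 0.56, with 14 above their DMSO mean and 5 higher at an unadjusted p below 0.05 (beside 4.12% of all genes). GDF15, a stress-induced cytokine, read 145, 676 and 325 with 77 and 110.3, 53.4 and 73.7 with DMSO (adjusted p = 0.0947), and CDKN1A, the cell cycle inhibitor p21, 744, 1225 and 1046 with 77 and 580.4, 203 and 335 with DMSO (adjusted p = 0.128). For both genes replicate 1 of 77 was the lowest of its group and replicate 2 the highest.

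Lists of proliferation and sterol genes had medians below 0 and no calls. Of 21 measured DNA replication genes 0 were called, 8 had an unadjusted p below 0.05 with 77 lower (beside 4.01% of all genes), and the median was -0.30; MCM6 and MCM3, subunits of the replicative helicase, differed by -0.67 and -0.41 (adjusted p = 0.347 and 0.394). The 20 mitosis genes had a median of -0.15. All 13 cholesterol synthesis genes lay below their DMSO mean, with a median of -0.39 and 0 calls. The interferon list (20 measured, median -0.16), the glycolysis list (21, -0.13), the metallothionein list (9, -0.29) and the list for the unfolded protein response (17, -0.07) had 0 calls. On the aryl hydrocarbon receptor list 1 of 7 members was called higher (NQO1) and 1 lower (UGT1A6), beside 0.139% and 0.0397% of all genes; CYP1B1, its xenobiotic oxidase, read 1762, 1132 and 1766 with 77 and 622, 811 and 687 with DMSO (adjusted p = 0.148), and TIPARP differed by 0.99 (adjusted p = 0.199).

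**Figure D5:**
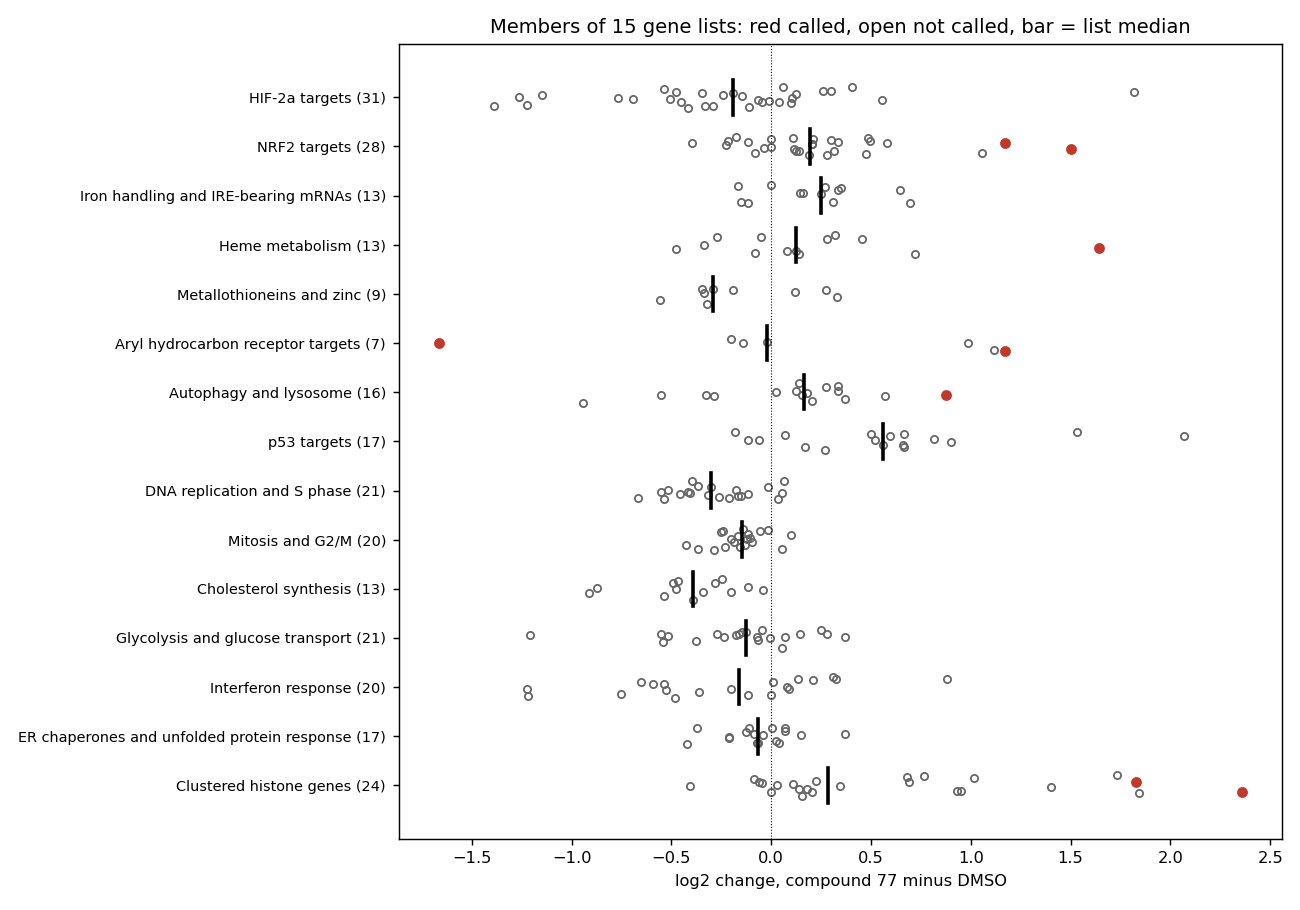
Log2 change, compound 77 minus DMSO (x axis), of the measured members of 15 gene lists, 1 row a list with its number of measured members. Red points were called, open points were not, and black bars mark list medians, from -0.39 for cholesterol synthesis to 0.56 for p53 targets.

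Gene groups drawn from arrays that 77 and DMSO do not share were read out in 77 against DMSO. Of 161 genes called and at least 2-fold lower in WT8 than in PRC3 (1.06% of all genes), 46 (28.6%) had 77 arrays wholly below the DMSO arrays. Another 5 (3.11%) had them wholly above, beside 6.92% and 7.35% of all genes. In each direction 1 was called, beside 0.139% of all genes higher and 0.0397% lower. The median log2 change of the 161 genes with 77 was -0.27. It was -0.08, -0.29 and -0.34 for 77 replicates 1, 2 and 3 against the mean of DMSO. For DMSO replicates 1, 2 and 3, each against the other 2, it was 0.10, -0.08 and -0.04. The value of 77 replicate 1 was thus near that of DMSO replicate 2. WT8 replicate 3 had an ACTB 3 prime over 5 prime ratio of 2.37, and the median was -0.19 without it. The 225 genes at least 2-fold higher in WT8 (1.49%) had a median of 0.07 and 4 calls, all higher (beside 0.139% of all genes). Of these genes 34 (15.1%) had 77 arrays wholly above the DMSO arrays and 20 (8.89%) wholly below. DMSO replicates 1, 2 and 3, each against the other 2, gave medians of -0.14, -0.0036 and 0.13, a range that holds the 0.07.

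Groups defined between the other compounds and untreated Blk were chosen after results were seen. Their contrasts hold no array of 77 or DMSO, but their calls used the same shared spread estimate. The 137 genes called and at least 2-fold lower with 41 than with Blk (0.906%) had a median change of -0.57 with 77 against DMSO. Of them 72 (52.6%) had 77 arrays wholly below DMSO, beside 6.92% of all genes. The 123 genes higher with 41 (0.813%) had a median of 0.49 and 9 calls, all higher, with 46 (37.4%) wholly above. Of all genes 0.139% were called higher and 7.35% lay wholly above. Medians were -0.70 for the 73 genes lower (0.483%) and 0.34 for the 102 genes higher (0.674%) with 76, and -0.42 for the 45 genes lower (0.298%) and 0.58 for the 31 genes higher (0.205%) with 40, which includes the arrays scaled differently. Replicate 1 of 77 gave the smallest shift in each of these 6 groups, for instance -0.34 in the genes lower with 41, against -0.74 for replicate 2 and -0.60 for replicate 3. In that group DMSO replicates 1, 2 and 3, each against the other 2, gave 0.12, -0.14 and 0.07. Against Blk in place of DMSO, 77 gave 106 called probe sets (0.303%) and 56 called genes (0.37%), between 23 (without 77 replicate 2) and 172 (without 77 replicate 1) probe sets when 1 array was left out.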

How the data were processed

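Affymetrix U133 Plus 2.0 arrays of 786-O RNA were analysed. The deposited values are intensities on a linear scale, 1 signal per probe set, made by the authors with MAS5 per the submitters' processing notes; no version or scaling target is given there. Per the labels, signals were bounded at 20 and 16000 and then filtered on variation, but the deposited table holds values under 20 and all 54675 probe sets. In 24 columns the mean was the same to 0.01, while replicates 2 and 3 of compound 40 had means of 166 and 174.

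The 26 arrays were quantile normalized without 62 control probe sets, bounded at 20 and 16000 and put on a log2 scale. Of 54613 probe sets, the 35013 that reached the median of the array in 3 or more of 24 arrays were kept. limma 3.58.1 in R 4.3.3 (lmFit, eBayes with a trend) was fitted to the 24 arrays of 8 groups, with 16 residual degrees of freedom, and Benjamini-Hochberg adjusted p-values below 0.05 were called over all kept probe sets; the fit was tested on simulated data. The number of arrays limits the precision. Gene symbols are those of the platform annotation (41043 of 41097 single-gene probe sets matched a RefSeq gene), and a gene was represented by its brightest single-gene probe set. The named genes were EPAS1, VHL, HIF1A, ARNT, the HIF-2a, NRF2 and iron lists, the 12 largest called rises and falls with non-overlapping groups and a brighter group no dimmer than the 70th percentile (falls filled up by p), up to 4 members a list, and the 6 largest differences in each direction from 41, 76 and 40. Other called genes were named after their values were seen. The gene lists and members were chosen with earlier results of these data known. Alternatives covered normalization, filter, floor, trend, control group, samples in the fit, a replicate block and leaving out each array.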

Additional observations from a re-analysis of the deposited data

How the results depend on the processing

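The number of probe sets called with 77 against DMSO, 60 as reported, was 27 with median scaling, 34 with no filter on dim probe sets, 36 without a trend, 0 with the 2 groups alone, 229 with DMSO and Blk together as control, and 15 to 125 with 1 array left out. The gene lists held 5 called genes, against 3 with no filter, 0 with the 2 groups alone, 14 with the joint control and 2 to 11 with 1 array left out. Against 41 the count of 158 was 21 with the 2 groups alone and 85 to 134 with 1 array left out. Against 76 the count of 166 was 99 with the labels' filter, 6 with the 2 groups alone and 76 to 143 with 1 array left out. Against 40 the count of 154 was 49 with median scaling, 64 with no filter, 85 with the labels' filter, 95 with a floor of 50, 75 without a trend, 3 with the 2 groups alone, 15 without the differently scaled arrays (chosen after seeing the data) and 33 to 459 with 1 array left out. As deposited, without normalization, 36 were higher and 91 lower with 77 than with 40, against 86 higher and 68 lower as reported. Median scaling gave 29 higher and 92 lower against 41 (55 and 103 as reported), 17 and 105 against 76 (49 and 117), 19 and 30 against 40, and 23 and 59 against Blk (47 and 59). Against Blk the count of 106 was 55 with no filter, 0 with the 2 groups alone and 23 to 172 with 1 array left out. The median of genes higher in WT8, 0.0686, was 0.0349 with the labels' filter, 0.0067 with a floor of 50, 0.0066 with the joint control and 0.0043 to 0.0805 with 1 array left out; WT8 and PRC3 are absent from the fit of the 2 groups alone. The causes were not tested.

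With replicate number as a block the counts were 175 against DMSO, 317 against 41, 276 against 76, 354 against 40 and 328 against Blk, and 14 list genes were called. The labels do not say that numbers pair arrays. Deviations from group means correlated at 0.17, 0.16 and 0.07 between same-numbered 77 and DMSO arrays. Each 77 array correlated best with the DMSO array of its own number. These low values do not settle whether the arrays were paired. For single genes, 526 of the alternative values lost a call, 93 gained one, 7233 kept their side of the threshold and 0 reversed. Near the floor, where 45.5% of deposited values lie, small signals limit what can be seen.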

Other observations

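Some gene groups that no comparison turned on also gave values with 77 against DMSO. Genes of matrix proteolysis had 4 of 17 measured members higher at an unadjusted p below 0.05, beside 4.12% of all genes, and none called: PLAU, the urokinase, read 283, 531 and 287 with 77 and 201, 212 and 151 with DMSO, and TIMP1, an inhibitor of matrix proteases, 967, 1176 and 1163 with 77 and 735, 703 and 959 with DMSO. Both had groups that did not overlap (limma adjusted p = 0.48 and 0.384). Among apoptosis regulators BIK, a pro-death BH3 protein, differed by 0.72 and BCL2L11, another one, by -0.78 on the log2 scale, neither called. In the interferon list MX1, a GTPase, differed by -1.22 and IFIT2 by 0.88 (limma adjusted p = 0.367 and 0.544).

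Second probe sets of THBS1, an inhibitor of angiogenesis, of the hyaluronan receptor CD44 and of RGS20 were called higher (named after their values were seen), with log2 changes of 2.12, 1.41 and 1.54 (limma adjusted p = 0.0372, 0.0342 and 0.0064). The brightest probe sets of the same genes gave 1.60, 0.58 and 0.36 and were not called.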
